A study of Mus musculus with 12 samples.

Results

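The genotype-dependent part of the cisplatin response was measured in mouse embryonic fibroblasts as a difference of differences, probe set by probe set. The log2 change with cisplatin in Rb null cells was set against the log2 change in wildtype cells, over all 12 arrays. Of 7945 genes tested, 1885 (23.7%) had responses that differed between the genotypes at a Benjamini-Hochberg adjusted p under 0.05 and by at least 1.5-fold. The response was higher in Rb null cells for 691 of them (8.70% of the genes tested) and lower for 1194 (15.0%). Among the latter were 45 of 50 genes of G2/M and mitosis. Of the 50, 33 rose and 0 fell with cisplatin in wildtype cells, and 4 rose and 23 fell in Rb null cells. Sex-linked transcripts set the untreated wildtype arrays apart from all others. In the wildtype response, and so in every difference of responses, cisplatin and the origin of the RNA cannot be told apart.

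The cells were primary fibroblasts of embryonic day 13.5, used at passage 2 and either wildtype or homozygous for a null allele of Rb (Rb-/-). Each genotype was left untreated or exposed to 16 µM cisplatin for 24 h, which gave 4 groups of 3 arrays: wildtype untreated, wildtype cisplatin, Rb null untreated and Rb null cisplatin. The design text describes 4 RNA samples hybridised in triplicate, so the spread between arrays of a group, and with it every p-value, may be that of hybridisation and not of separate cultures. Neither the strain of the mice nor the number of embryos behind each RNA sample was given in the labels used here.

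The Rb protein binds E2F transcription factors and represses the genes for DNA replication and for entry into S phase until cyclin-dependent kinases phosphorylate it. Genes of mitosis are repressed in quiescent or arrested cells by the related DREAM complex, which holds E2F4 and the Rb relatives p107 and p130 and binds promoter elements named CHR (cell cycle genes homology region). Cisplatin crosslinks DNA, blocks replication forks and RNA polymerase, and activates p53, whose target p21 inhibits cyclin-dependent kinases and so keeps Rb and its relatives active. In fibroblasts, loss of Rb is known to weaken the arrest that follows DNA damage.

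Rb1 itself separated the genotypes on every array. Its signals were 419.9, 472 and 488 in untreated wildtype, 452, 344 and 352 in treated wildtype, 105, 91.7 and 85.3 in untreated Rb null and 102, 74.0 and 92.4 in treated Rb null cells. The highest Rb null value lay below the lowest wildtype value, and the difference of responses was not called (log2 0.20 ± 0.21, adjusted p = 0.481). Here and below, ± after a log2 value is the standard error from limma over 3 arrays per group, and ± after a signal is the SD (n = 3).

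The 12 arrays had trimmed means of 500.1 to 500.2 units and 3'/5' ratios of 0.759 to 0.881 for Gapdh and 1.10 to 1.32 for Actb. The 3' control probe set for 18S ribosomal RNA was 105.7 ± 14.5 in untreated wildtype, 213.5 ± 29.2 in treated wildtype, 110.3 ± 10.4 in untreated Rb null and 383 ± 91.7 in treated Rb null cells, so every treated array lay above every untreated one, and those of Rb null cells highest. The part of this in the differences of responses was not tested. Sex-linked transcripts set the untreated wildtype arrays apart. Xist was at 118, 115 and 163 there and between 2151 and 3761 on the 9 other arrays, while the Y-linked Eif2s3y was at 478 ± 7.90 there and averaged 1.27 to 6.63 in the other groups. In the wildtype response, treatment and the origin of the RNA that these transcripts mark cannot be told apart. The response of Rb null cells and the genotype difference after cisplatin do not use the untreated wildtype arrays, and they are given for some of the results. Where a gene has only its difference of responses, that value does use these arrays. Of the 1885 genes, 76 (4.03%) had a level in untreated wildtype cells that alone stood apart, at least 1.5-fold from the nearest of the 3 other groups, which lay within 1.5-fold of each other. For 344 (18.2%) that group was treated Rb null, for 98 (5.20%) treated wildtype and for 71 (3.77%) untreated Rb null cells. Among the 6060 genes without a called difference, untreated wildtype cells stood apart for 36 and treated wildtype cells for 18. Untreated Rb null cells did so for 25 and treated ones for 141. By this rule a gene with a called response in Rb null cells cannot be among the 76. Every difference uses the untreated wildtype arrays, so the 76 do not measure how many differences the origin of that RNA enters.

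In wildtype cells the response to cisplatin was called for 2184 genes (27.5%), of which 1175 rose (14.8%) and 1009 fell (12.7%). In Rb null cells it was called for 2932 genes (36.9%), of which 1317 rose (16.6%) and 1615 fell (20.3%). Over all genes tested their sizes went together (Pearson's r = 0.707 and Spearman's rho = 0.663 across 7945 genes, which are not independent replicates), with a median absolute log2 change of 0.33 in wildtype cells and 0.42 in Rb null ones. Of the 3623 genes called in either genotype, 1593 (44.0%) also had a called difference. The 1885 genes fell into 5 classes. A response was called in Rb null cells only for 749 genes (9.43% of the genes tested), of which 309 rose (3.89%) and 440 fell (5.54%). A response in wildtype cells only was called for 366 genes (4.61%), of which 263 rose (3.31%) and 103 fell (1.30%). A further 412 genes (5.19%) responded in both genotypes in the same direction but unequally, and 66 (0.831%) in opposite directions. For the other 292 (3.68%) the difference passed although neither response did, with 204 lower (2.57%) and 88 higher (1.11%) in Rb null cells.

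A response that was not called is not thereby absent. Throughout, a rise or fall in 1 genotype only means that the response was called in that genotype only. In 494 of the 749 genes called in Rb null cells only, the 95% confidence interval of the wildtype response lay within 1.5-fold in either direction, and the same held for the Rb null response of 249 of the 366 genes called in wildtype cells only. The balance of the 2 directions depended on scaling. Of all 13575 probe sets tested, named or not, 3132 passed (23.1%), and 37.5% of these were higher in Rb null cells with the deposited scaling. After quantile normalization 46.9% of 3017 calls were higher, and after median centring of the arrays 53.9% of 3112, which moved the median difference over all probe sets from -0.069 to 0.051 on the log2 scale.

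**Figure D1:**
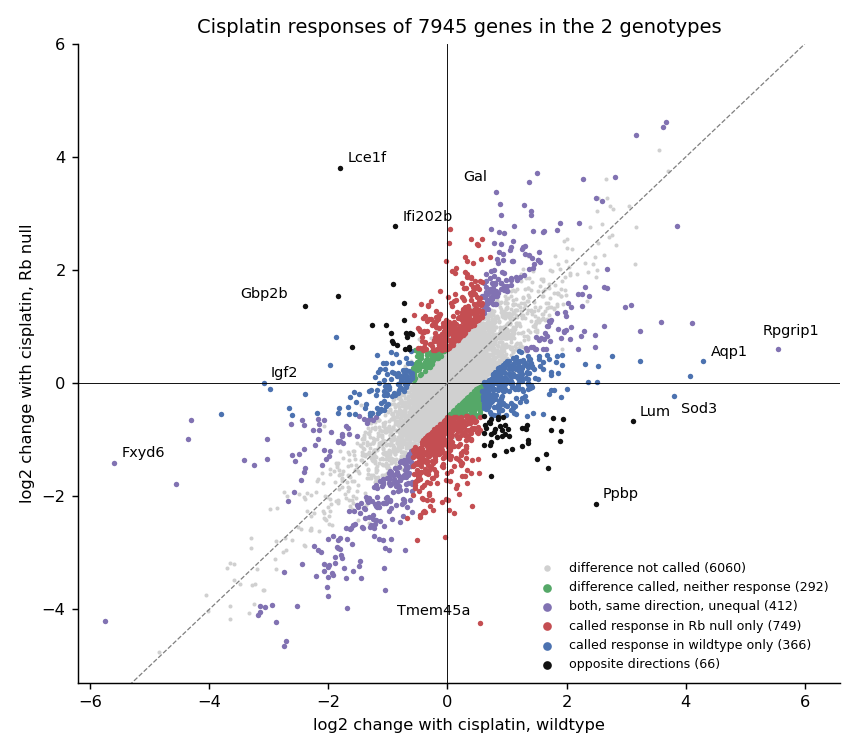
Log2 change with cisplatin in wildtype (horizontal) and Rb null cells (vertical), 1 point per gene tested (n = 7945), coloured by class, with the number of genes of each class in the key. The dashed line marks equal responses; the 66 black points in the upper left and lower right are the genes that responded in opposite directions.

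Genes that responded in opposite directions were mostly ones that rose in wildtype and fell in Rb null cells: 45 of 66 (0.566% of the genes tested), against 21 (0.264%) that fell in wildtype and rose in Rb null cells. In 62 of the 66, treated and untreated arrays did not overlap in either genotype, which the choice of genes called in both makes likely and which adds no support. The largest difference of all was that of Lce1f, a gene of the cornified envelope of skin. Its signals were 2687, 2970.1 and 2669 in untreated and 782, 741 and 848 in treated wildtype cells, and 63.5, 83.4 and 86.0 in untreated and 1094, 1333 and 1229.7 in treated Rb null cells. With cisplatin it was 3.48-fold lower in wildtype and 14-fold higher in Rb null cells, and the difference of responses was log2 5.61 ± 0.15 (adjusted p = 3.15e-11). The level in Rb null cells was below that of wildtype without drug (-4.99 ± 0.11) and above it with drug (0.62 ± 0.11). Crct1, like Lce1f a gene of the epidermal differentiation complex of chromosome 3, had the same arrangement. It went from 2322, 2122 and 2163 to 569.8, 629.8 and 636 in wildtype and from 293, 243 and 307 to 865, 774 and 873 in Rb null cells (log2 difference 3.38 ± 0.13, adjusted p = 5.08e-10), and treated and untreated arrays did not overlap in either genotype. Of 7 tested epithelial and keratinocyte markers, Lce1f among them, 3 had a higher (42.9%) and 0 a lower response in Rb null cells, against 8.70% and 15.0% of all genes. With cisplatin 3 rose and 1 fell in wildtype cells, and 5 rose and 0 fell in Rb null cells. Their summed signal ran from 4600.4 to 4872 without and 3291 to 3532 with cisplatin in wildtype cells. In Rb null cells it ran from 1485 to 1641 without and 4143 to 4245 with cisplatin. That sum holds Lce1f, the largest part of it in untreated wildtype cells. The fall of the sum in wildtype cells therefore does not describe the other members. The count holds Lce1f too, in a list written with earlier results of these data known, and adds no support. The part of epithelial cells or keratinocytes in these differences was not tested.

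Interferon-inducible genes of this class were highest in treated Rb null cells. Ifi202b, which encodes a DNA-binding protein of the p200 family, had signals of 242, 226 and 227 in untreated and 110.2, 126 and 128 in treated wildtype cells. In Rb null cells it went from 369, 425 and 419 to 2718, 2745 and 3006, a 6.84-fold rise, and the difference of responses was log2 3.65 ± 0.13 (adjusted p = 2.15e-10). The guanylate-binding protein gene Gbp2b fell from 218, 191 and 229 to 31.1, 26.4 and 39.8 in wildtype and rose from 144, 121 and 148 to 359, 346 and 411 in Rb null cells (3.76 ± 0.22, adjusted p = 2.09e-08). No array of treated Rb null cells was as low as any other array for either gene. Rasl11b, which encodes a small GTPase of the RAS family, fell from 1131, 885 and 899 to 538, 396 and 617 in wildtype and rose from 606, 595 and 579 to 1929, 2101 and 2049.8 in Rb null cells (2.66 ± 0.19, adjusted p = 1.3e-07).

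On the other side, the chemokine gene Ppbp showed the largest crossing. It rose from 308, 267 and 254 to 1477, 1708 and 1612 in wildtype and fell from 749.7, 743 and 742 to 174, 169 and 144 in Rb null cells (log2 difference -4.63 ± 0.14, adjusted p = 3.52e-11). The 4 groups did not overlap, and their order without drug was the reverse of that with it. Lum, which encodes the matrix proteoglycan lumican, rose from 102, 90.3 and 115 to 954, 1007 and 919.9 in wildtype and had 185, 133 and 148 without and 88.0, 104 and 87.8 with cisplatin in Rb null cells (-3.78 ± 0.19, adjusted p = 8.41e-09). Its fall in Rb null cells was small (-0.67 ± 0.14) and was no longer called after quantile normalization, so that Lum then counted as responding in wildtype cells only. Igfbp4, which encodes a binding protein of insulin-like growth factors, rose from 1162, 1328 and 1236 to 3526, 4076 and 4524 in wildtype and fell from 1979, 2169.5 and 2048 to 801, 639 and 734 in Rb null cells (-3.19 ± 0.14, adjusted p = 1.61e-09). The growth factor gene Fgf7 (-2.56 ± 0.11) and the growth arrest gene Gas2 (-2.91 ± 0.24) crossed in the same way, and so did the lysozyme gene Lyz2 (-2.90 ± 0.11), whose probe set may share targets with its near-identical neighbour Lyz1 (-2.76 ± 0.14).

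**Figure D2:**
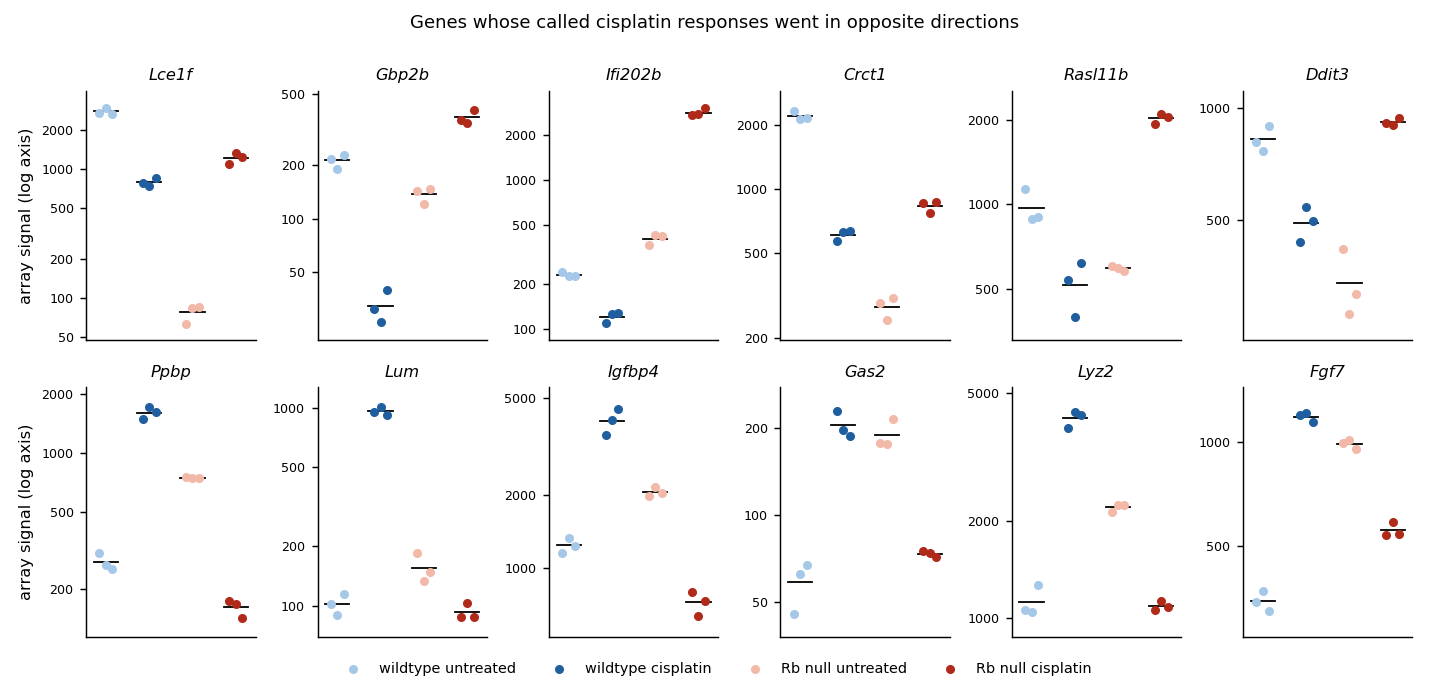
Signals on single arrays (points, log axis) and group means (bars) of 12 genes whose cisplatin responses were called in opposite directions, 3 arrays in each of 4 groups. The upper row fell in wildtype and rose in Rb null cells, as Ddit3 did (range 763 to 894 without and 437 to 541 with cisplatin in wildtype, 281 to 419 and 897 to 939 in Rb null cells); the lower row rose in wildtype and fell in Rb null cells, a fall that for Lum was not called after quantile normalization.

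Genes of G2/M and mitosis made up the most uniform group. Of 50 tested, 45 had a lower response in Rb null cells and 0 a higher one, against 15.0% and 8.70% of all genes. The counts of all lists below are to be read against these shares. The lists were written with earlier results of these data known, so the counts describe and do not test. Under each of the scalings tried, 43 to 45 of the 50 were lower. Over the list the median log2 change was 0.75 in wildtype cells and -0.51 in Rb null ones. Of the 45, 11 responded in opposite directions, 16 rose in wildtype cells only, 12 fell in Rb null cells only, 4 rose in both but more in wildtype, and in 2 neither response was called. Before treatment the list stood higher in Rb null cells by a median log2 of 1.80, and after treatment by 0.39.

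Plk1, which encodes the mitotic polo-like kinase, was at 304, 234 and 326 in untreated wildtype and 431, 498 and 514 in treated wildtype cells, and at 1392, 1545 and 1536 in untreated and 429, 505 and 480.1 in treated Rb null cells. It rose in the one genotype (0.73 ± 0.12) and fell in the other (-1.64 ± 0.12), to levels that overlapped after treatment (log2 -0.03 ± 0.12), and the difference of responses was -2.37 ± 0.17 (adjusted p = 1.26e-07). Cenpa, which encodes the histone variant of centromeres, went from 154, 216 and 148 to 485, 376 and 507 in wildtype and from 897, 984 and 995 to 449, 512 and 455 in Rb null cells (-2.37 ± 0.20, adjusted p = 5.69e-07). The treated arrays of the genotypes again overlapped. Ube2c, the ubiquitin-conjugating enzyme of the anaphase-promoting complex, rose from 621, 502 and 504 to 1233, 1126 and 1122 and fell from 2676, 2593 and 2608 to 1180.5, 1142 and 1181 (-2.25 ± 0.12, adjusted p = 8.41e-09), with a genotype difference after cisplatin of 0.01 ± 0.08. The spindle checkpoint kinase gene Bub1b crossed too (-2.05 ± 0.20, adjusted p = 2.5e-06), as did the gene of the phosphatase Cdc25b, which activates the mitotic kinase CDK1 (-1.45 ± 0.20, adjusted p = 7.24e-05). Birc5, which encodes the chromosomal passenger protein survivin, rose in wildtype cells only (-1.35 ± 0.13, adjusted p = 2.89e-06). In the Rb null arrays alone, which do not involve the untreated wildtype RNA, cisplatin lowered Plk1 (3.12-fold), Ube2c (2.24-fold) and Cenpa (2.01-fold).

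Promoters of 3 of these genes are printed because their transcripts crossed and each holds the 2 elements known from mitotic genes close to its start. The sequences are from RefSeq (GRCm38.p6) and run from 150 bases before to 30 bases after the transcription start, 5′ to 3′. Capitals mark the CHR letters TTTGAA or TTCGAA and the CCAAT box, each searched on both strands (so also TTCAAA and ATTGG); the motifs share no letters.
Ube2c (chr2:164769779-164769958, plus strand): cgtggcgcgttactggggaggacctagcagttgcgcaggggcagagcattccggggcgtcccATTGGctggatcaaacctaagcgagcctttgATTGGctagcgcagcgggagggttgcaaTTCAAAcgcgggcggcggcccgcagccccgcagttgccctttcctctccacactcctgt
Cenpa (chr5:30666736-30666915, plus strand): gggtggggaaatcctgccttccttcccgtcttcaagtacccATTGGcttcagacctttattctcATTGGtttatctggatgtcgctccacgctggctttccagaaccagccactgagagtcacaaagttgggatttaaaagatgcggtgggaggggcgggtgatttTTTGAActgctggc
Cdc25b (chr2:131186798-131186977, plus strand): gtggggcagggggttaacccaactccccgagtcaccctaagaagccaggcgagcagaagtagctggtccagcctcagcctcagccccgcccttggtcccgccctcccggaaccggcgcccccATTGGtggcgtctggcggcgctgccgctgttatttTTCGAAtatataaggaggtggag
In the window from 250 bases before to 50 after the start, a CHR match was present in 33 of 42 genes of the G2/M list with a RefSeq promoter (78.6%) and a CCAAT match in 32 (76.2%). Among all 6498 tested genes with a promoter the shares were 16.1% and 43.0%, and among all 32851 promoters that RefSeq lists here they were 19.2% and 37.4%. Of the 38 genes with a promoter that rose in wildtype and fell in Rb null cells, 14 (36.8%) had a CHR match, and of the 16 that fell in wildtype and rose in Rb null cells 4 had one. A match of such short letters describes the sequence and is not a binding site.

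E2F targets for G1/S and DNA replication behaved less uniformly. Of 52 tested, 26 had a lower response in Rb null cells and 1 a higher one. In wildtype cells 38 rose and 0 fell, by a median log2 of 0.94 over the list, and in Rb null cells 14 rose and 4 fell, by a median of 0.27. Of the 26, 18 rose in wildtype cells only. The list was higher in Rb null cells both before (median log2 1.38) and after cisplatin (0.80). Ccne1, the gene of cyclin E1, was at 397, 352 and 395 and, with cisplatin, 682, 741 and 688 in wildtype cells. In Rb null cells it was at 1430.0, 1208 and 1254 and, with cisplatin, 1349, 1224 and 1246. The wildtype response was 0.87 ± 0.08 and that of Rb null cells -0.02 ± 0.08, with a difference of -0.89 ± 0.12 (adjusted p = 4.85e-05), and the treated wildtype arrays stayed below every Rb null array. The DNA ligase gene Lig1 had the same order, with 331 ± 50.9 and 719 ± 82.4 in wildtype and 1326 ± 57.3 and 1020.0 ± 97.5 in Rb null cells (-1.48 ± 0.16, adjusted p = 8.98e-06).

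Not all members followed. Ccne2, the gene of cyclin E2, rose in both genotypes, and its difference of -0.54 ± 0.18 did not reach 1.5-fold (adjusted p = 0.0292), although it did when any of 3 single arrays was left out (-0.61, -0.62 and -0.68). E2f1 was at -0.53 ± 0.21 (adjusted p = 0.0563), and past the threshold without either of 2 Rb null cisplatin arrays (-0.61 and -0.67). Pola1 and Prim2, which encode subunits of the DNA polymerase alpha and primase complex, had called falls in Rb null cells only. Pola1 was at 104, 106 and 97.0 and, with cisplatin, 61.4, 75.9 and 69.1 in wildtype cells, and went from 662, 544 and 595 to 88.1, 63.8 and 86.1 in Rb null cells (-2.26 ± 0.21, adjusted p = 2.18e-06), so that untreated Rb null cells alone stood apart. The gene is on the X chromosome and spans 328 kb. Prim2 gave -2.15 ± 0.18 (adjusted p = 5.07e-07). Thymidine kinase, Tk1, rose from 277 ± 59.2 to 497 ± 5.97 in wildtype and fell from 1596 ± 128 to 1028 ± 17.4 in Rb null cells (-1.47 ± 0.17, adjusted p = 1.51e-05), a fall that was not called with median centring.

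The promoter of Pola1 is shown as an example of a match to the E2F letters in a gene with a lower response in Rb null cells, with the letters TTTGGCGC or TTTCCCGC, searched on either strand, in capitals.
Pola1 (chrX:93632126-93632305, minus strand): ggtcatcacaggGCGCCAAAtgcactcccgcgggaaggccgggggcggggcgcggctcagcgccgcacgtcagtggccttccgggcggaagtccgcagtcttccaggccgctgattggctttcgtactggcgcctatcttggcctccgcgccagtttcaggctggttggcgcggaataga
Such a match was present in 14 of 45 genes of the E2F list with a promoter (31.1%), in 2 of 42 of the G2/M list (4.8%) and in 247 of 6498 tested genes (3.8%). Among genes that rose in wildtype cells only it was present in 18 of 216 (8.3%), and among genes that fell in Rb null cells only in 13 of 364 (3.6%).

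**Figure D3:**
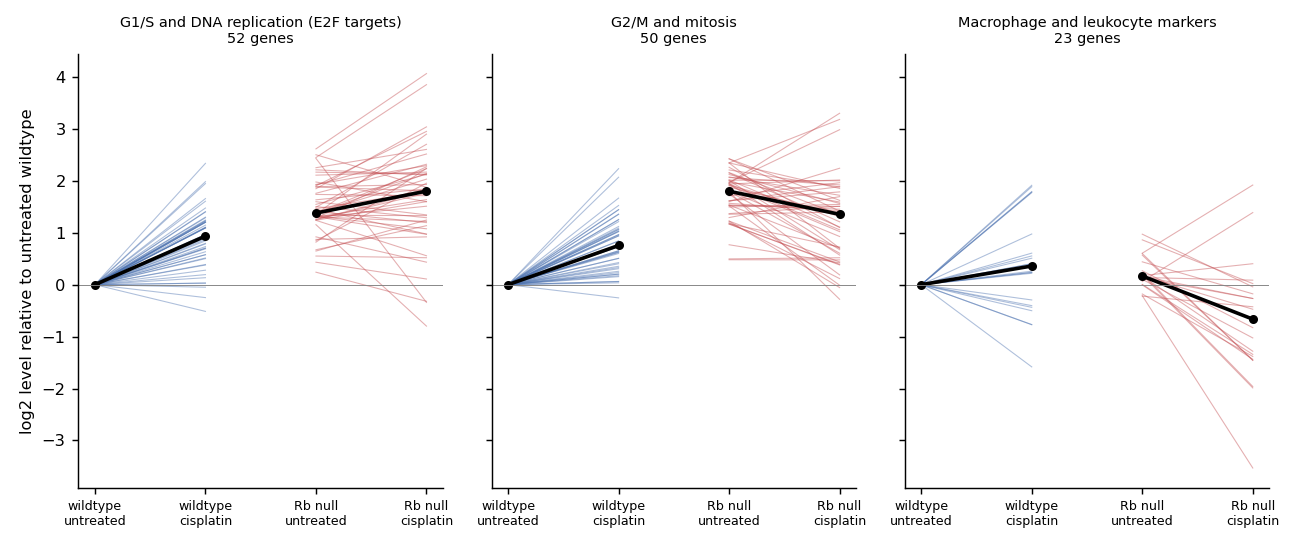
Log2 level relative to untreated wildtype cells of the tested genes of 3 lists (thin lines, blue for wildtype and red for Rb null; thick line, median over the list). Median responses were 0.75 (wildtype) and -0.51 (Rb null) for G2/M genes, 0.94 and 0.27 for E2F targets, and 0.36 and -1.01 for macrophage markers.

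The regulators of Rb, E2F and G1 had 8 members with a lower (32.0%) and 3 with a higher response (12.0%) of 25 tested, against 15.0% and 8.70% of all genes. Both Rb relatives had lower responses in Rb null cells. Rbl1, which encodes p107 and is itself an E2F target, rose from 149, 139.7 and 138 to 289, 307 and 354 in wildtype cells and was at 477, 576 and 608 and, with cisplatin, 452, 576 and 552 in Rb null cells (-1.17 ± 0.17, adjusted p = 0.000105). Rbl2, which encodes p130, was at 130.5 ± 1.61 and 177 ± 15.1 in wildtype and fell from 152 ± 8.35 to 81.7 ± 6.59 in Rb null cells (-1.22 ± 0.19, adjusted p = 0.000186). Cdkn1b, the gene of the kinase inhibitor p27, was level in wildtype cells, at 282, 305 and 319 without and 303, 306 and 326 with cisplatin. In Rb null cells it went from 563, 480.0 and 529.9 to 153, 133 and 166, a 3.33-fold fall (-1.78 ± 0.15, adjusted p = 6.12e-07).

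Repair genes for interstrand crosslinks had a lower response in Rb null cells for 8 of 18 (44.4%) and a higher one for 1 (5.56%), against 15.0% and 8.70% of all genes. The recombination gene Rad54l (-1.24 ± 0.21), the Fanconi gene Fancf (-1.20 ± 0.15) and the translesion polymerase gene Rev1 (-1.04 ± 0.16) rose in wildtype cells only, and Rev1 with untreated wildtype cells as the group apart. Fancl, the ubiquitin ligase of the Fanconi pathway, fell in Rb null cells only (-1.13 ± 0.14, against -0.13 ± 0.14 in wildtype). Of 17 genes of nucleotide excision and mismatch repair, 5 were lower (29.4%) and 2 higher (11.8%), and with median centring 2 and 2. The higher ones were Ercc1 (0.99 ± 0.14, adjusted p = 6.43e-05) and Xpa (0.87 ± 0.17, adjusted p = 0.00114). Ercc1, part of the nuclease that excises platinum lesions, was at 2404, 2225 and 1847 and, with cisplatin, 1584, 1444 and 1471 in wildtype cells and at 1898, 2309.7 and 2164 and, with cisplatin, 3129.6, 2755 and 2992 in Rb null cells. Neither response was large enough to be called alone (-0.51 ± 0.10 and 0.48 ± 0.10), and the treated arrays of the genotypes did not overlap. The damage kinase gene Atm rose in wildtype cells only (-0.86 ± 0.21, adjusted p = 0.0048), and in both genotypes unequally after quantile normalization.

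Targets of p53 for arrest and feedback rose in both genotypes, 15 of 26 in wildtype and 17 of 26 in Rb null cells with 0 that fell, and the median difference over the list was -0.02. Of the 26, 6 were higher (23.1%) and 3 lower (11.5%) in their response in Rb null cells, against 8.70% and 15.0% of all genes. With median centring 6 were higher and 1 lower. Cdkn1a, the gene of p21, was at 0.09 ± 0.08 (adjusted p = 0.391), while a second probe set of the gene gave -0.89 (adjusted p = 0.000422), and Mdm2, the ubiquitin ligase of p53, was at -0.13 ± 0.16 (adjusted p = 0.567). Gadd45a, a stress gene of arrest and repair, was at 150.3, 184 and 161 and, with cisplatin, 149, 158 and 94.3 in wildtype cells and went from 108, 133 and 118 to 299, 266 and 260.0 in Rb null cells (1.44 ± 0.24, adjusted p = 0.000366). Only treated Rb null cells stood apart. Plk2, a polo-like kinase induced by p53, also rose in Rb null cells only (1.10 ± 0.10), and Rprm, the gene of the G2 arrest protein reprimo, rose in both and further in Rb null cells (967 ± 199 against 2567 ± 58.2 with cisplatin; 0.95 ± 0.23, adjusted p = 0.00485).

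Among p53 targets that promote cell death 5 of 14 had a higher and 1 a lower response in Rb null cells, and the median response was 0.82 in wildtype cells against 1.17 in Rb null ones. Pmaip1, which encodes the BH3 protein Noxa, rose from 1572, 1877 and 1742 to 3136, 3198 and 3360.3 in wildtype and from 861, 703 and 716 to 5054, 4078 and 3663 in Rb null cells (1.57 ± 0.16, adjusted p = 3.27e-06). It started lower in Rb null cells (-1.18 ± 0.11), and after treatment the difference was 0.39 ± 0.11. Casp6, an executioner caspase gene, went from 435 ± 62.6 to 729.7 ± 42.1 and from 367 ± 36.4 to 1169.8 ± 34.9 (0.91 ± 0.15, adjusted p = 0.000261). The cytokine gene Lif, also a p53 target, had the largest difference of the list (2.00 ± 0.24, adjusted p = 1.92e-05).

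Of 25 immediate early transcription factor genes 8 were higher (32.0%) and 3 lower (12.0%) in their response, against 8.70% and 15.0% of all genes. With median centring 9 were higher and 1 lower. Median responses were 0.89 in wildtype and 1.35 in Rb null cells. Fosb rose from 136, 107 and 144 to 311, 324 and 326 in wildtype and from 102, 99.6 and 102 to 621, 522 and 572 in Rb null cells (1.12 ± 0.17, adjusted p = 0.000147). Atf3, the stress-induced factor of the CREB family, had responses of 3.17 ± 0.29 and 4.39 ± 0.29, but the call of its difference (1.22 ± 0.41, adjusted p = 0.0296) was lost when any of 6 single arrays was left out. Klf2 went the other way, at 401 ± 25.8 and 532 ± 29.9 in wildtype and falling from 345 ± 65.7 to 169 ± 29.2 in Rb null cells (-1.38 ± 0.20, adjusted p = 0.00012). The MAP kinase phosphatase, Sprouty and Spred genes, which limit MAP kinase signalling, had 5 of 12 higher and 2 lower, against 8.70% and 15.0% of all genes. The higher ones included Dusp6, which dephosphorylates ERK (0.88 ± 0.14), and Dusp14 (0.94 ± 0.15). The lower ones, named after their values were seen, were Spred2 (-0.94 ± 0.14) and Spred1 (-0.74 ± 0.15).

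The integrated and endoplasmic reticulum stress list had 5 higher (17.9%) and 4 lower (14.3%) of 28, against 8.70% and 15.0% of all genes. Under median centring 9 were higher and 1 lower. Ddit3, which encodes the stress factor CHOP, fell from 807, 763 and 894 to 437, 541 and 497 in wildtype and rose from 419, 281 and 316 to 911, 897 and 939 in Rb null cells (2.16 ± 0.18, adjusted p = 5.46e-07). Ppp1r15a encodes GADD34, the phosphatase subunit that reverses phosphorylation of the initiation factor eIF2 alpha. It was at 791, 932 and 843 and, with cisplatin, 1057, 1142 and 1197 in wildtype cells, and went from 549, 706 and 589.7 to 3486, 3759.7 and 3601 in Rb null cells (2.14 ± 0.13, adjusted p = 4.07e-08). Treated Rb null arrays exceeded every other array by more than 2-fold, and the chaperone gene Dnajb9 was called in Rb null cells only as well (1.70 ± 0.10). Herpud1, a gene of endoplasmic reticulum degradation, fell in wildtype cells only (1.26 ± 0.26). The Ppp1r15a promoter holds the full palindrome of the cyclic AMP response element, TGACGTCA, to which factors of the ATF and CREB family bind, shown in capitals.
Ppp1r15a (chr7:45526239-45526418, minus strand): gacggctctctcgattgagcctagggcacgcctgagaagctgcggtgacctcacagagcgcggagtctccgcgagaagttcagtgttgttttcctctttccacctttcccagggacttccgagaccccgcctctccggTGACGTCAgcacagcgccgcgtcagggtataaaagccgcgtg
This element was present in 237 of 6498 tested genes (3.6%), in 14 of 241 genes that rose in Rb null cells only (5.8%) and in 8 of 364 that fell in Rb null cells only (2.2%). The share was highest among the classes in genes that fell in wildtype cells only, with 6 of 82 (7.3%), and in the integrated and endoplasmic reticulum stress list 1 of 26 (3.8%) held the element.

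Of 20 heat shock chaperone genes 5 had a higher response in Rb null cells and 0 a lower one. Dnajb1, a co-chaperone of HSP70, rose from 1401 ± 31.2 to 2244 ± 83.9 in wildtype and from 1919 ± 101 to 5330.0 ± 399.5 in Rb null cells (0.79 ± 0.09, adjusted p = 1.81e-05). For Hspb1, the gene of HSP27, untreated Rb null cells stood apart: signals were 10437 ± 748 and 8192 ± 135 in wildtype and 4116 ± 262 and 8827 ± 849 in Rb null cells (1.44 ± 0.10, adjusted p = 1.39e-07). Of 23 metallothionein and NRF2 target genes 3 were higher (13.0%) and 2 lower (8.70%), against 8.70% and 15.0% of all genes. The antioxidant genes Hmox1, for heme oxygenase (1.49 ± 0.13), and Gpx3, for a secreted glutathione peroxidase (1.82 ± 0.13), had called rises in Rb null cells only. In wildtype cells they rose by log2 0.39 ± 0.09 and 0.33 ± 0.09, short of 1.5-fold. The quinone reductase gene Nqo1 rose in wildtype cells only (-0.90 ± 0.12), from an untreated wildtype level that alone stood apart.

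Chemokine and cytokine genes had a higher response in Rb null cells for 12 of 24 and a lower one for 2, the same counts under quantile normalization and median centring. The list does not hold Ppbp, the chemokine gene with a lower response described above. Cxcl1, a chemokine for neutrophils, rose from 64.9, 97.3 and 97.6 to 246, 229 and 234 in wildtype and from 86.6, 85.7 and 72.7 to 1106, 993 and 1107 in Rb null cells (2.18 ± 0.20, adjusted p = 1.51e-06). The untreated arrays of both genotypes overlapped, and the treated ones did not. Ccl5, a chemokine for T cells, fell in both genotypes and less in Rb null cells, from 191 ± 16.8 to 15.0 ± 6.82 against 269 ± 26.5 to 131 ± 20.9 (2.04 ± 0.29, adjusted p = 9.27e-05). In wildtype cells its treated signals were near the 10.4 units added before the logarithm. Ccl9 was 1 of the 2 with a lower response, rising from 135, 105 and 109 to 1046, 1224 and 1269 in wildtype cells and standing at 123, 138 and 159.7 and, with cisplatin, 192, 192 and 178 in Rb null cells (-2.84 ± 0.18, adjusted p = 5.29e-08).

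Of 26 interferon response genes 6 were higher (23.1%) and 4 lower (15.4%) in their response in Rb null cells, against 8.70% and 15.0% of all genes. The median difference over the list was -0.14. Of the 4 lower genes, 3 had a called fall in Rb null cells only and 1 a called rise in wildtype cells only. Those that were higher included the guanylate-binding protein genes Gbp2 and Gbp3, which lie with Gbp2b on chromosome 3. Gbp2 was at 116, 107 and 80.9 and, with cisplatin, 92.0, 102 and 101 in wildtype cells, and went from 114, 95.7 and 116 to 535, 530.2 and 505 in Rb null cells (2.20 ± 0.20, adjusted p = 1.76e-06). Gbp3 gave 2.69 ± 0.39 (adjusted p = 0.000115) and the membrane protein gene Ifitm1 1.82 ± 0.23 (adjusted p = 3.7e-05). For Gbp2 and Gbp3 the 3 groups other than treated Rb null cells lay within 1.5-fold of each other.

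Markers of macrophages and leukocytes, a cell type that fibroblast cultures from whole embryos can hold, had a lower response in Rb null cells for 16 of 23 tested and a higher one for 0 (1 after quantile normalization or median centring). The 16 are 69.6% of the list, against 15.0% of all genes. In wildtype cells 7 rose and 3 fell, and in Rb null cells 2 rose and 16 fell. Over the list the median genotype difference, Rb null minus wildtype, was log2 0.17 without and -1.05 with cisplatin. Their summed signal ran from 8997 to 9400 in untreated and 18747 to 19311 in treated wildtype cells, and from 12273 to 12663 in untreated and 8267 to 8686 in treated Rb null cells. C1qa, for a complement subunit made by macrophages, was at 435, 439.8 and 434 and, with cisplatin, 636, 579 and 529.9 in wildtype cells, and fell from 449.5, 529.8 and 519 to 74.2, 113 and 126 in Rb null cells (-2.58 ± 0.21, adjusted p = 4.53e-07). Cd53, a tetraspanin of leukocytes, rose from 155 ± 10.1 to 555 ± 38.0 in wildtype and fell from 214 ± 18.2 to 136 ± 12.7 in Rb null cells (-2.39 ± 0.16, adjusted p = 9.21e-08), the fall being lost after quantile normalization or median centring. Of 28 such markers on the array 5 were below the level filter (Aif1, Fcgr1, Itgam, Ms4a6d and Plek). In bulk RNA fewer cells of a type and less RNA per cell cannot be told apart, and the part of these cells in the other differences, those of Ppbp, Ccl9 and Lyz2 included, was not tested.

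Markers of fibroblasts also had lower responses in Rb null cells, for 10 of 15 (66.7%) and 0 higher, against 15.0% and 8.70% of all genes. Their summed signal was 77993 to 80823 and, with cisplatin, 66332 to 69187 in wildtype and 76424 to 79316 and, with cisplatin, 50343 to 51705 in Rb null cells. Pdgfrb, a receptor of platelet-derived growth factor, fell from 928, 1011 and 929 to 510.1, 462 and 505 in wildtype and from 955, 908 and 935 to 134, 112 and 146 in Rb null cells (-1.81 ± 0.13, adjusted p = 2.06e-07), with no overlap between the treated groups. Its relative Pdgfra rose in wildtype cells only (-2.16 ± 0.30), as did the proteoglycan gene Dcn (-1.62 ± 0.18). Of 22 collagen genes 10 had lower (45.5%) and 3 higher (13.6%) responses in Rb null cells. Col6a3, for a chain of the microfibrillar collagen VI, was at 1236, 1544 and 1533 and, with cisplatin, 1265, 1508 and 1418 in wildtype cells and fell from 3439.7, 3617 and 3406 to 485, 585 and 489 in Rb null cells (-2.69 ± 0.14, adjusted p = 9.23e-09). A second chain, Col6a2, fell in Rb null cells only too (response -1.86 ± 0.07, adjusted p of the difference 9.23e-09). Of 33 proteoglycans and other matrix genes 7 were lower (21.2%) and 0 higher, and with median centring 4 and 1, at a median difference of -0.03 with the deposited scaling. Smoc2, for a calcium-binding matrix protein, fell from 948, 1086 and 981 to 487, 454 and 479 in wildtype and from 2394, 2059 and 2232 to 208, 223 and 231 in Rb null cells (-2.21 ± 0.12, adjusted p = 9.23e-09). Its untreated level was higher and its treated level lower in Rb null cells, without overlap, and the order was the same for Ltbp1, a binding protein of latent TGF-beta (-1.45 ± 0.13, adjusted p = 1.13e-06). Cartilage collagens took other courses: Col10a1 rose in both and more in wildtype cells (-3.04 ± 0.29), and Col2a1 fell in both and by a larger log2 step in wildtype (1.81 ± 0.40), though by less in signal units, where the difference was -389. Both have values near the 10.4 units added before the logarithm, Col10a1 in untreated and Col2a1 in treated wildtype cells. The list of contractile and TGF-beta-responsive genes had 6 of 31 higher (19.4%) and 3 lower (9.68%), against 8.70% and 15.0% of all genes. The smooth muscle genes Cnn1, for calponin (1.92 ± 0.13, adjusted p = 1.26e-07), and Actg2, for an actin (1.18 ± 0.10, adjusted p = 1.03e-06), fell in both genotypes and further in wildtype cells. The summed signal of 7 skeletal muscle markers was 3778 to 3956 without and 967 to 1189 with cisplatin in wildtype and 2313 to 2393 without and 1053 to 1217 with cisplatin in Rb null cells, and its part in these differences was not tested.

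Of the growth factor receptors and genes of the IGF axis, 11 of 27 had a lower and 4 a higher response in Rb null cells. Igf2, the imprinted fetal growth factor, had a called response in wildtype cells alone. It fell from 7195, 6442 and 6921 to 895, 776 and 732 in wildtype cells, an 8.48-fold fall, and was at 5171, 5583 and 5512 without and 5220.3, 5753 and 5417 with cisplatin in Rb null cells (3.09 ± 0.11, adjusted p = 1.6e-10). Treated wildtype cells were the group that stood apart. Imprinted growth genes as a list had higher responses in Rb null cells for 6 of 11 and a lower one for 1. Mest fell from 1453, 1589 and 1461 to 372, 345 and 403 in wildtype cells and was at 562, 575 and 612 and, with cisplatin, 718, 746 and 739 in Rb null cells (2.31 ± 0.11, adjusted p = 4.65e-09). The noncoding Meg3 fell in both, and more in wildtype (1.55 ± 0.11), but its response in Rb null cells was not called with median centring and a second probe set did not pass (adjusted p = 0.422). Dlk1, which lies beside Meg3 on chromosome 12, had a called rise in wildtype cells only (-1.36 ± 0.18, adjusted p = 5.16e-05), where the untreated level stood apart. In Rb null cells it rose by log2 0.48 ± 0.13, short of 1.5-fold.

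**Figure D4:**
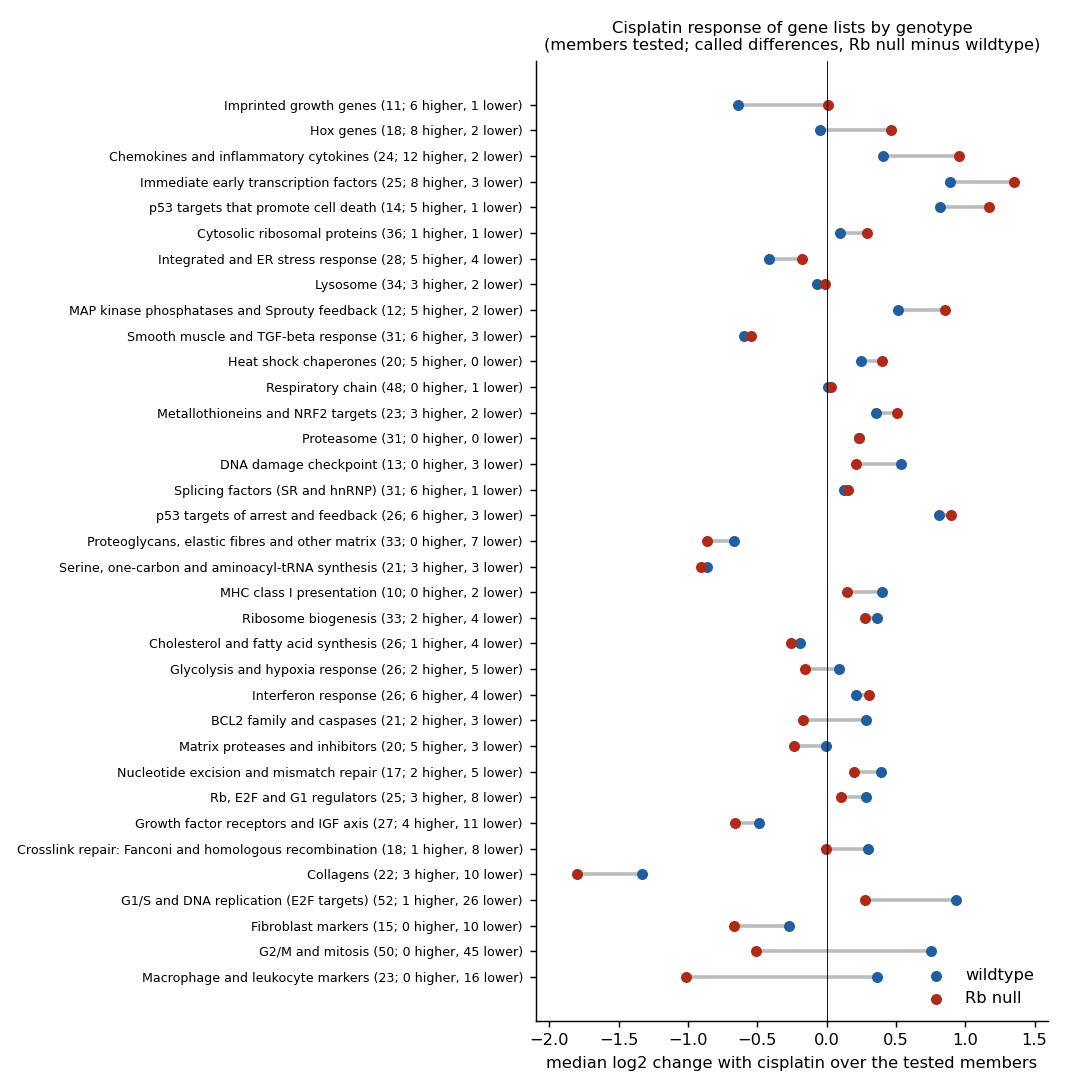
Median log2 change with cisplatin over the tested members of each gene list in wildtype (blue) and Rb null cells (red), for lists of 10 or more tested genes. Labels give the number tested and the numbers of members with a called difference, Rb null minus wildtype; lists are ordered by their median difference, from macrophage markers and G2/M genes at the bottom to Hox genes (a list chosen after its values were seen) and imprinted genes at the top.

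Outside the lists, genes called in wildtype cells only were led by Sod3 and Aqp1. Sod3, for extracellular superoxide dismutase, went from 71.1, 81.1 and 42.4 to 998, 1034 and 997 in wildtype cells and was at 71.3, 81.2 and 69.7 and, with cisplatin, 67.9, 49.5 and 68.4 in Rb null cells (-4.03 ± 0.27, adjusted p = 1.01e-07). Only the treated wildtype arrays were above 100 units. The water channel gene Aqp1 went from 47.3, 59.9 and 53.4 to 1212, 1245 and 1271 in wildtype cells and was at 243, 265 and 250.5 and, with cisplatin, 308, 368 and 330.0 in Rb null cells (-3.91 ± 0.15, adjusted p = 4.05e-10), with no overlap among the 4 groups. The matrix protease gene Mmp3 (-2.33 ± 0.17) and the calcification inhibitor gene Mgp (-1.86 ± 0.11) also rose in wildtype cells only. Of the genes with a called fall there only, Bex1, on the X chromosome, went from 1224 ± 172 to 77.2 ± 8.47 (3.27 ± 0.17). In Rb null cells it went from 301 ± 32.9 to 203 ± 5.34, a fall short of 1.5-fold. In wildtype cells Tmem87a went from 699 ± 68.7 to 82.3 ± 29.7, with 746 ± 17.5 and 692 ± 49.9 in Rb null cells (2.87 ± 0.23). By its values Xist belongs to the genes with a called rise in wildtype cells only (-3.94 ± 0.17), with the untreated wildtype arrays apart, as given above.

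Genes called in Rb null cells only were led on the lower side by Tmem45a, a transmembrane protein gene. It was at 305, 415 and 406 and, with cisplatin, 518, 515 and 624 in wildtype cells and went from 444, 449 and 386 to 11.9, 16.5 and 10.2 in Rb null cells (-4.79 ± 0.21, adjusted p = 1.68e-09). The treated Rb null arrays were near the 10.4 units added before the logarithm, so the size of that fall depends on this constant. The pentraxin gene Ptx3, a secreted pattern recognition protein, fell there too (-2.41 ± 0.21, adjusted p = 8.07e-07), and so did the transcription factor gene Osr1 (-2.26 ± 0.53, adjusted p = 0.0039) and the BMP inhibitor gene Smad6 (-1.89 ± 0.16, adjusted p = 6.43e-07). On the higher side stood Tex15, a gene of meiotic recombination known from the germ line, at 105, 99.9 and 108 and, with cisplatin, 120.3, 112 and 88.9 in wildtype cells and rising from 149, 157 and 152 to 914, 879 and 922 in Rb null cells (2.46 ± 0.17, adjusted p = 1.02e-07). Treated Rb null cells were the group apart. Mbd4, for a DNA glycosylase that acts on mismatched thymine and uracil, rose there too (1.97 ± 0.18, adjusted p = 1.55e-06), its wildtype response of 0.58 ± 0.13 lying just short of 1.5-fold and passing it after quantile normalization. The nuclear noncoding RNA Neat1 rose in Rb null cells only (1.97 ± 0.14, adjusted p = 1.51e-07) and its genomic neighbour Malat1 in both, further in Rb null cells (2.22 ± 0.32, adjusted p = 0.000109).

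Of the 412 genes that responded in both genotypes in the same direction, 189 fell (2.38% of the genes tested) and 119 rose (1.5%) more in Rb null cells, and 51 fell (0.642%) and 53 rose (0.667%) more in wildtype cells. The neuropeptide gene Gal rose from 78.7, 103 and 83.9 to 168, 163 and 156 in wildtype and from 90.4, 56.6 and 63.9 to 791, 789 and 883 in Rb null cells (2.58 ± 0.22, adjusted p = 7.53e-07). Rgs16, a regulator of G protein signalling, started lower in Rb null cells and ended higher there (1765 ± 65.8 to 3283 ± 161 against 752 ± 46.0 to 5968 ± 305; 2.08 ± 0.09). Plpp1, for a lipid phosphate phosphatase, fell from 3233, 3157 and 3341 to 1788, 2014 and 2097 and from 3505, 3602 and 3589 to 425, 415 and 518 (-2.23 ± 0.12, adjusted p = 9.23e-09), and the exchange factor gene Tiam1 fell further in Rb null cells as well (-2.62 ± 0.35), to a mean of 20.3 that is also near the constant of 10.4. The treated Plpp1 arrays of the genotypes lay more than 3-fold apart.

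The larger response was in wildtype cells for Rpgrip1, a gene of the photoreceptor cilium. It went from 58.2, 44.8 and 49.6 to 2726, 2858 and 2922 in wildtype and from 75.3, 63.2 and 51.4 to 70.5, 129.5 and 110.4 in Rb null cells (-4.94 ± 0.26, adjusted p = 9.23e-09), the most negative difference of all genes tested. Its response in Rb null cells was just past the threshold (0.60 ± 0.18), and arrays overlapped there. The stress kinase gene Mapk13 (-2.31 ± 0.13) and the TGF-beta family receptor gene Acvrl1 (-1.84 ± 0.30) also rose more in wildtype cells. Fxyd6, for a regulator of the sodium pump, fell from 1203, 1176 and 1206 to 7.3, 16.4 and 22.4 in wildtype and from 640.1, 618 and 641 to 195, 236 and 270.5 in Rb null cells (4.18 ± 0.25, adjusted p = 3.48e-08). Its treated wildtype signals were near the 10.4 units added before the logarithm, and the size of the difference depends on that constant. The immune checkpoint ligand gene Cd200 (3.66 ± 0.19) and the brain fatty acid binding protein gene Fabp7 (2.79 ± 0.27) were similar, both with lower levels in untreated Rb null cells (-2.33 ± 0.13 and -2.96 ± 0.19), and under quantile normalization or median centring the fall of Cd200 in Rb null cells was not called.

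The 292 genes whose difference passed while neither response did had median responses in wildtype and Rb null cells of 0.35 and -0.41 for the 204 that were lower and -0.34 and 0.41 for the 88 that were higher. The chromatin remodelling gene Ep400 was at 651 ± 63.2 and 954 ± 140.4 in wildtype and 853 ± 6.28 and 582 ± 136 in Rb null cells (-1.11 ± 0.21, adjusted p = 0.000773). Hbegf, for a ligand of the EGF receptor, was at 6551, 5941 and 5886 and, with cisplatin, 4301, 4279 and 4477 in wildtype cells and at 3218, 3729.6 and 3606 and, with cisplatin, 5010.1, 5260.0 and 5186 in Rb null cells (1.04 ± 0.09, adjusted p = 7.53e-07). Treated and untreated Hbegf arrays did not overlap in either genotype.

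The difference varied with the genomic span of the gene. RefSeq (GRCm38.p6) gave a span for 7937 of the 7945 genes. In genes under 10 kb, median responses were 0.16 in wildtype cells and 0.19 in Rb null ones, and 10.4% had a lower and 11.5% a higher response in Rb null cells. In genes of 100 to 300 kb (n = 686) the medians were -0.51 and -0.95, and 35.7% had a lower and 3.35% a higher response in Rb null cells, against 15.0% and 8.70% of all genes. From 300 kb on (n = 109) the median responses were -1.31 and -1.63, and the share with a lower response was 25.7%. Median signals of that class went from 355 to 120.2 in wildtype and from 352 to 108.4 in Rb null cells. The class of 100 to 300 kb kept the highest share of lower responses under quantile normalization, with 205 of 686, and median centring, with 197.

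**Figure D5:**
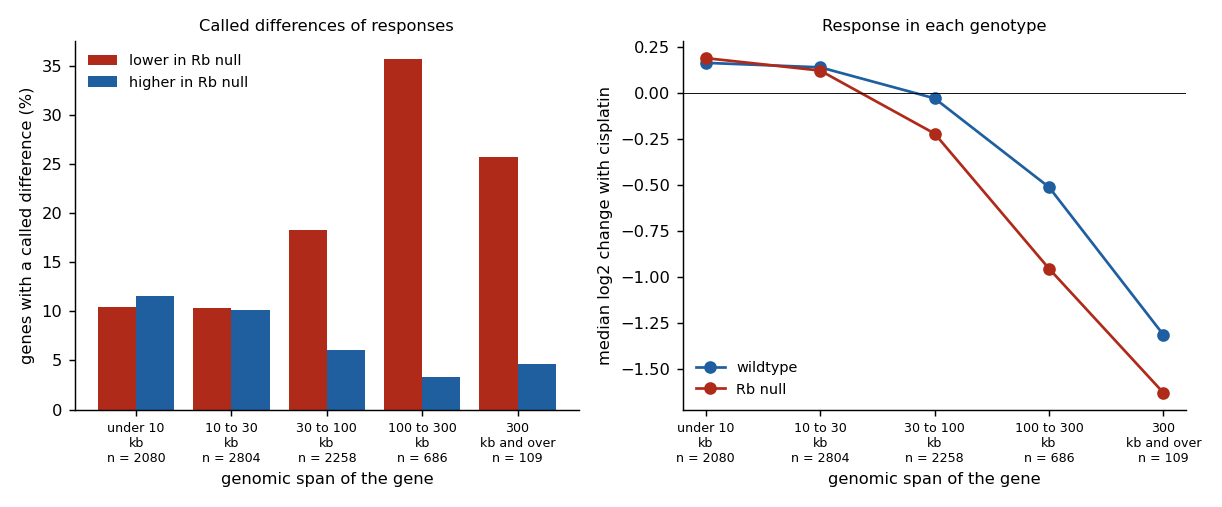
Left, percent of tested genes in each class of genomic span with a called difference of responses, lower (red) or higher (blue) in Rb null cells; right, median log2 change with cisplatin in each genotype. Lower responses in Rb null cells are most frequent at 100 to 300 kb (35.7%), and under 10 kb the medians are 0.16 and 0.19.

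Some groups had few or no calls. Of 31 proteasome genes 0 had a called difference by limma, at a median of 0.01 and with 4 higher and 4 lower at an unadjusted p under 0.05, and there were also 0 calls under quantile normalization and median centring. The 48 respiratory chain genes had 1 lower and 0 higher (10 and 11 unadjusted), the lower one being Ndufv2, which was not called with median centring. Among 36 cytosolic ribosomal protein genes 1 was higher and 1 lower, while 17 were higher and 3 lower at an unadjusted p under 0.05, with a median difference over the list of 0.19 (-0.03 after quantile normalization). Rpl11 was not called after quantile normalization and a second probe set of Rpl22 did not pass. Endothelial markers had 0 called of 5 tested by limma (1 at an unadjusted p under 0.05), but 1 higher after quantile normalization or median centring, and adipocyte markers 0 of 3 (0 unadjusted). None of the 6 erythroid markers on the array passed the level filter.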

How the data were processed

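The data were MAS5 signal intensities deposited by the authors, 1 per probe set and array, for 12 Affymetrix arrays; MAS5 is named per the submitters' processing notes, without a version, and the scaling target of about 500 units was read from the values. A constant of 10.4, the 10th percentile of the table, was added before taking log2, and the 40% of probe sets with the lowest mean were left out, which kept 13575 of 22690 (64 controls excluded). Of these, 12532 had 1 symbol in the platform annotation, 434 several and 609 none; symbols were updated through RefSeq (GRCm38.p6). Each gene was represented by 1 probe set, the brightest that is not of a cross-hybridising type where there was one.

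limma 3.58.1 (R 4.3.3) fitted 1 mean per group over all 12 arrays, with moderated variances following a trend. Contrasts were the cisplatin response in each genotype, their difference, and the genotype difference without and with drug. Adjusted p-values are Benjamini-Hochberg values over all probe sets tested. A call needed an adjusted p under 0.05 and 1.5-fold. The fit was tested on simulated data. Named genes are the 5 with the largest difference in each class and direction, the 4 largest called per gene list, and a few fixed genes; the members and the 43 lists were chosen with earlier results of these data known. Lists are described by counts and medians, with no test. The alternatives tried were other constants, filters, scalings, variance models and fold minimums, single arrays left out, a replicate block, other probe sets and the linear scale. The number of arrays limits the precision.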

Additional observations from a re-analysis of the deposited data

Results flagged for a closer look

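The responses of 1885 genes differed between wildtype and Rb null cells by the test of the difference itself, and 66 of them had called responses in opposite directions. In the latter group the largest log2 differences, Rb null minus wildtype, were those of Lce1f (5.61), Ppbp (-4.63), Lum (-3.78), Gbp2b (3.76), Ifi202b (3.65), Crct1 (3.38), Igfbp4 (-3.19), Gas2 (-2.91), Lyz2 (-2.90) and Rasl11b (2.66). Probe sets below the level filter, outside the tests, gave mean signals on the untreated wildtype arrays of 478 for Eif2s3y, 193 for Kdm5d and 199.3 for Uty. These are genes of the Y chromosome, and the 3 other groups had means of at most 6.63, 21.5 and 27.4 for the same probe sets.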

How the results depend on the processing

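None of the 3132 probe sets called for the difference of responses that were still tested changed sign in any of the log2 settings tried. Only other constants, other scalings and left-out arrays could have changed a sign. The filters, the variance model, the fold minimums and the replicate block leave the log2 difference itself as it was. Leaving out single arrays gave 2998 to 3160 calls. Leaving out the lowest 60% of probe sets gave 2021 calls (766 higher and 1255 lower in Rb null cells), with 230 genes in wildtype only, 268 in both unequally and 42 in opposite directions, since fewer probe sets were tested. Without a fold minimum there were 5109 calls (2025 higher, 3084 lower), with 1218 genes in both, 353 opposite and 49 with neither response called. A 2-fold minimum gave 1191 calls (403 higher, 788 lower), with 286 genes in Rb null only, 163 in wildtype only, 89 in both, 14 opposite and 154 with neither. On the linear scale 3070 of the 3132 kept their sign, 1171 of them higher and 1899 lower in Rb null cells. Among the 178 named genes the sign turned for Col2a1 (-389 signal units) and Ptp4a3 (662.5 units). The construction of a log ratio and of a difference accounts for this. Quantile normalization gave 3017 calls (1416 higher, 1601 lower) and median centring 3112 (1678 higher, 1434 lower). The replicate numbers did not pair the arrays (correlations of same-numbered deviations from -0.186 to 0.109), and a replicate block gave 3061 calls (1140 higher, 1921 lower). Of 2136 values of the 178 named genes with 1 array left out, 43 lost their call and 5 gained one, and of 82 values from other probe sets of the same genes 25 did not share the call.

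MAS5 detection calls were not used here, so a low signal is not known to be above background. The design text names 4 RNA samples for 12 hybridisations, so variation between cultures is not covered. The untreated wildtype group cannot be left out of a difference of responses.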

Other observations

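Hox genes, a list chosen after its values were seen, had a higher response in Rb null cells for 8 of 18 tested and a lower one for 2, with a median log2 response of -0.05 in wildtype cells and of 0.47 in Rb null ones. These transcription factors pattern the body axis, and their levels in fibroblasts depend on where in the embryo the cells came from. In wildtype cells 3 rose and 7 fell, and in Rb null cells 8 rose and 1 fell. Hoxc4 fell in wildtype cells from 292, 204 and 201 to 37.0, 57.1 and 77.0 and was at 32.0, 126 and 121 without and 135, 157 and 159 with cisplatin in Rb null cells (2.68 ± 0.52, adjusted p = 0.000987), a response that was called in Rb null cells too with median centring. The counts were 10 higher and 2 lower after quantile normalization and 11 and 2 with median centring.

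Metabolic genes parted one by one. Phgdh, the entry enzyme of serine synthesis, was at 4539.5, 4639 and 4376 without and 4247, 4876 and 4829.6 with cisplatin in wildtype cells and fell from 5542, 5046 and 5159.5 to 2173, 2088 and 1922 in Rb null cells (-1.38 ± 0.10, adjusted p = 1.13e-07). Among 26 genes of glycolysis and hypoxia 2 were higher (7.69%) and 5 lower (19.2%), against 8.70% and 15.0% of all genes, and with median centring 4 and 3. Egln3, an oxygen-sensing hydroxylase, rose in Rb null cells only (1.72 ± 0.15), and the hexokinase gene Hk1 (-1.01 ± 0.17) and the mitophagy gene Bnip3 (-1.22 ± 0.14) fell there only. The lysosomal mannosidase gene Man2b1 rose in Rb null cells only, from 1249, 1182 and 1078 to 3481, 3533 and 3417 (1.17 ± 0.11, adjusted p = 1.36e-06), and the collagenase gene Mmp13 rose in both genotypes and more in wildtype (-1.06 ± 0.18, adjusted p = 0.000334).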
